A study of Mus musculus with 6 samples.

Results

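Collagen chain genes were taken as every named gene on the array whose symbol reads Col, a number, the letter a and a number, each represented by its brightest probe (the one with the highest mean over the 6 arrays). They came to 43 genes, read by 50 probes, out of 19321 named genes. By the kind of assembly their products form, 11 of them code for fibrillar chains (types I, II, III, V, XI, XXIV and XXVII), 9 for network-forming chains (types IV, VIII and X), 9 for chains of fibril-associated collagens (types IX, XII, XIV, XVI, XIX, XX and XXII) and 14 for other collagens. The last class holds the beaded-filament chains of type VI, the anchoring-fibril chain Col7a1, the transmembrane chains Col13a1, Col17a1, Col23a1 and Col25a1, the multiplexins Col15a1 and Col18a1, and Col26a1. One chain, Col25a1, exceeded background on 1 array alone and was not tested, which left 42 tested chains among 18372 tested genes.

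RNA came from sorted, uncultured hind limb muscle cells of C57BL/6 mice that were young (8 to 10 weeks) or aged (24 to 28 months). There were 3 sorted populations: PDGFRa+ mesenchymal progenitors, satellite cells, which are the muscle's own stem cells, and a mixed population of CD31+ or CD45+ cells, written CD31_CD45 below, which joins endothelial and hematopoietic cells. Each population and age was hybridised to 1 one-colour array, so the 6 arrays held 2 per population and no replicate within a population and age. Cells of repeated sorts were pooled before RNA extraction, the number of mice behind a pool is not given in the sources used here, and the labels name no transgene or treatment.

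Collagen chains wind around each other into rod-like helices, and many types need chains from more than one gene, so the genes of a type are often read side by side. Fibrillar collagens bear the tensile load of tendon, endomysium and perimysium in muscle. Type IV collagen forms the sheet of the basement membrane under which the satellite cell lies, and type VI collagen links that membrane to the fibres outside it. In skeletal muscle, PDGFRa+ mesenchymal progenitors are known as a main source of interstitial matrix.

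The sort markers ran with the labels. Pdgfra, the receptor used to sort the progenitors, read 5700.4 and 4149 intensity units on the young and aged PDGFRa+ arrays and 7.6 to 60.6 in the other 4. Pax7, which marks satellite cells, read 1055 and 1361.6 in the satellite arrays and was not above background in either PDGFRa+ array. Pecam1 (CD31) and Ptprc (CD45) were highest in the CD31_CD45 arrays, at 2464.8 and 2450.7 and at 251.7 and 414.6. Between 88.43% and 92.32% of probes, and 39 to 43 of the 43 chains, were above background on an array. The scanner gain ratio in the file headers was 0.465 to 0.466 for the PDGFRa+ arrays and the young satellite array and 0.477 to 0.478 for the aged satellite and CD31_CD45 arrays. The PDGFRa+ and CD31_CD45 arrays therefore never shared a gain setting, so gain setting and population cannot be told apart for that pair except through the satellite arrays. The satellite arrays differ in age as well as in gain setting. A gain term in the fit therefore takes in the satellite age difference and is no correction for gain alone.

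Intensities below are the authors' deposited values, scaled to a median of 25 on every array. They can be compared across arrays for one probe but not between probes, because probes differ in how well they hybridise. Log2 differences come from a fit of population and age to all 6 arrays with limma, and the error given with each is its standard error (SE). An offset of 50 was added before the log, so for dim probes these differences, and the folds and 2-fold minimum based on them, are far smaller than the ratio of the deposited intensities. A chain was called between populations when its p-value, adjusted by the Benjamini-Hochberg method over all 18372 genes, was under 0.05 and the difference was at least 2-fold. The 3 population comparisons share arrays and are not independent of one another. In sorted bulk RNA, fewer cells of a type and less RNA per cell cannot be told apart.

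Collagen chains were called higher in PDGFRa+ cells than in each of the other populations and, at the offset and fold minimum used, in no case lower. With an offset of 10, or with no fold minimum, 1 chain was called lower than in satellite cells. Against satellite cells 14 of 42 chains rose and 0 fell, where 4.09% of all tested genes rose and 3.20% fell. Against CD31_CD45 cells 15 of 42 rose and 0 fell, beside 4.69% and 5.40% of all genes. Satellite cells exceeded CD31_CD45 cells in 6 chains and were below them in 1, Col4a2, beside 5.11% and 6.56% of all genes. There were 13 chains above both other populations, and 16 were called in at least 1 comparison. The shares of all genes for these combined counts were not computed, so neither count has a base rate beside it.

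The classes differed in how many of their chains were called. Of 11 fibrillar chains 6 rose against satellite cells and 7 against CD31_CD45 cells, with median log2 differences of 1.18 and 4.52. Of 9 network chains 2 and 1 rose (medians 0.70 and 0.38), of 9 associated chains 2 and 2 (medians 0.09 and 0.47), and of 13 tested chains of the other class 4 and 5 (medians 0.11 and 0.13). The medians over all tested genes were -0.01 and 0.01. On the normalised log2 values, both PDGFRa+ arrays lay above the other 4 for 24 of the 42 chains, beside 17.0% of all genes. These include Col4a1, whose deposited intensities overlap with those of CD31_CD45 cells. The same was true of the satellite arrays for 5 chains, beside 23.0% of genes, and of the CD31_CD45 arrays for 1 chain, Col13a1, beside 19.6%.

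**Figure D1:**
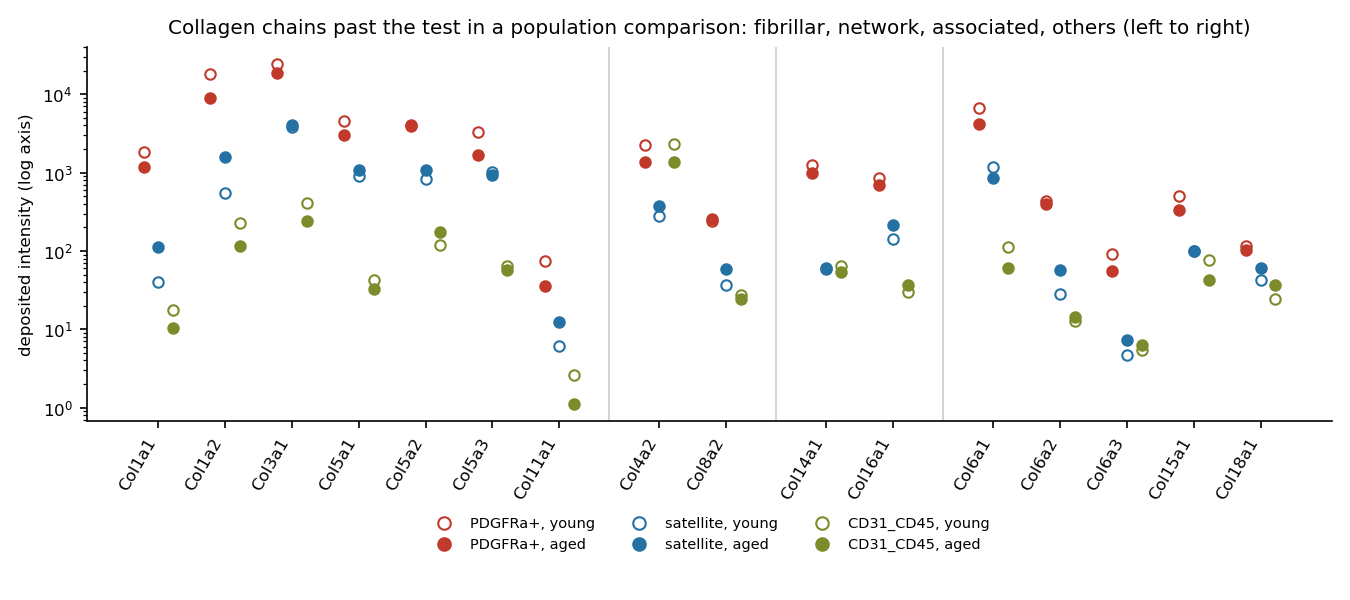
Deposited intensity (log axis) of the 16 chains called in at least 1 population comparison, with 1 point per array, open for young and filled for aged, coloured by population and ordered by class from left to right. Both PDGFRa+ points lie above all other points for every chain except Col4a2, where they lie among the CD31_CD45 points.

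The calls against satellite cells depended on having both PDGFRa+ arrays. Leaving out either the young or the aged PDGFRa+ array left 0 of the 14 chains past the test, and 0 of all genes, with all 14 in the same direction. Leaving out either CD31_CD45 array left 8 of the 14, also with all 14 in the same direction. Of the calls between satellite and CD31_CD45 cells, 4 of 7 were kept without the young CD31_CD45 array. With the local spot background, 2, 3 and 2 chains were called in the 3 comparisons, beside 69, 288 and 342 of all genes. With gain setting as a block, which takes in the satellite age difference, the counts were 14, 12 and 9. These stood beside 1311, 834 and 1882 of all genes. Against CD31_CD45 cells Col5a3, Col11a1, Col6a3 and Col18a1 then no longer passed (adjusted p = 0.0706 to 0.112 by limma).

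Type I collagen, the main fibril of tendon and connective tissue, is built from the products of Col1a1 and Col1a2. The Col1a1 probe read 1821.7 (young) and 1167.1 (aged) in PDGFRa+ cells, 40.5 and 111.5 in satellite cells and 17.8 and 10.3 in CD31_CD45 cells. The 3 populations did not overlap. The log2 difference was 3.75 ± 0.44 (SE) against satellite cells (13.5-fold, adjusted p = 0.0176) and 4.89 ± 0.44 against CD31_CD45 cells (29.6-fold, adjusted p = 0.00803, limma). From the deposited value table, which has no offset, the latter was 6.71, and with gain setting as a block the differences were 4.45 and 6.29. The Col1a2 probe read 18341.0 and 9027.2 in PDGFRa+ cells, 554.3 and 1591.5 in satellite cells and 227.8 and 116.3 in CD31_CD45 cells. Its populations did not overlap either, but within each population its young and aged values lay nearly 2-fold or more apart. Its difference was 3.85 ± 0.75 against satellite cells (adjusted p = 0.0431) and 6.18 ± 0.75 against CD31_CD45 cells (72.7-fold, adjusted p = 0.0143). With gain setting as a block these were 5.06 and 8.60, and the first was 2.65 without the young satellite array. The block values of both genes take in their age difference in satellite cells, so they are not differences corrected for gain. Satellite cells against CD31_CD45 cells gave 1.13 ± 0.44 for Col1a1 and 2.33 ± 0.75 for Col1a2, and neither passed (adjusted p = 0.145 and 0.0987).

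Type III collagen is a single-chain fibril that accompanies type I in soft tissue. Its gene, Col3a1, read 24307.9 and 18688.4 in PDGFRa+ cells, 3842.7 and 4012.6 in satellite cells and 406.5 and 237.8 in CD31_CD45 cells. On this probe the steps between populations were far wider than those between ages. The log2 difference was 2.73 ± 0.23 from PDGFRa+ to satellite cells and 3.32 ± 0.23 from satellite to CD31_CD45 cells. All 3 comparisons passed (adjusted p = 0.0107, 0.00194 and 0.00429, limma). A second, dimmer Col3a1 probe read 621 and 320.6, then 72 and 37.2, then 7.7 and 4.8. It had the same order, with steps of 2.42 and 1.10.

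Type V collagen starts and limits the growth of type I fibrils, and its chains come from Col5a1, Col5a2 and Col5a3. Col5a1 read 4553.6 and 3041.7 in PDGFRa+ cells, 910.8 and 1092.2 in satellite cells and 43.0 and 33.1 in CD31_CD45 cells. Col5a2 read 4058.0 and 3918.0, then 828.2 and 1069.6, then 119.4 and 175.0 in the same order. Both stepped down from population to population without overlap, with differences of 1.85 ± 0.25 and 2.04 ± 0.16 against satellite cells and of 3.87 ± 0.25 and 2.48 ± 0.16 between satellite and CD31_CD45 cells, each past the test. Col5a3 read 3303.0 and 1674.1 in PDGFRa+ cells, 1004.1 and 936.3 in satellite cells and 64.0 and 57.2 in CD31_CD45 cells. Its difference between PDGFRa+ and satellite cells, 1.18 ± 0.30, did not pass (adjusted p = 0.0751, limma), whereas satellite cells exceeded CD31_CD45 cells by 3.46 ± 0.30 (adjusted p = 0.00659). In young mice the satellite level was 20% of the PDGFRa+ level for Col5a1, 20.4% for Col5a2 and 30.4% for Col5a3, against 2.22% for Col1a1 and 3.02% for Col1a2, each within its own probe. As log2 differences these were 2.31, 2.29 and 1.69, against 4.53 and 5.12. In aged mice the gap between the types was narrower, at 1.40, 1.80 and 0.67 against 2.97 and 2.58.

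Type XI collagen is the counterpart of type V in cartilage. Col11a1 read 74.4 and 35.7 in PDGFRa+ cells, 6.1 and 12.4 in satellite cells and 2.6 and 1.1 in CD31_CD45 cells. The order was that of the type V chains, with differences of 1.01 ± 0.21 and 1.28 ± 0.21 from the other populations (adjusted p = 0.0473 and 0.0258, limma). From the deposited value table they were 2.61 and 4.93. The first stood at the 2-fold minimum, and with gain setting as a block it was 1.27 (adjusted p = 0.0681). Col11a2, the partner chain, read 27.2 in young PDGFRa+ cells and 3.7 to 8.9 on the other 5 arrays, and no comparison passed. Col2a1, Col24a1 and Col27a1 passed in none either, and Col27a1 read 118.5 to 139.3 on all 6 arrays.

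The chains with the widest differences between PDGFRa+ and CD31_CD45 cells that have an entry in the promoter table of RefSeq (mouse build GRCm38.p6) were Col1a2, Col3a1, Col5a1 and Col6a1. Their 120 bases upstream of the annotated start are given below, and they were chosen by that comparison alone. Each is written along the gene's strand. Capitals mark 3 short promoter motifs, found on either strand. The first is CCAAT, which the factor NF-Y is known to bind. The second, with the letters TATAAA, is an element that places the start of transcription in a minority of promoters. The third, read as GGGCGG, is the core of the element bound by Sp1.
Col1a2, chr6:4505498-4505617, plus strand: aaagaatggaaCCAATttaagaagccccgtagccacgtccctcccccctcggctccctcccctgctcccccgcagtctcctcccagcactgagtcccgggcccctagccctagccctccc
Col3a1, chr1:45311418-45311537, plus strand: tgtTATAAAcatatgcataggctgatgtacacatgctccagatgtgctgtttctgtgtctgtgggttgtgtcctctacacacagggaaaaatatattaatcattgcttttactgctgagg
Col5a1, chr2:27886305-27886424, plus strand: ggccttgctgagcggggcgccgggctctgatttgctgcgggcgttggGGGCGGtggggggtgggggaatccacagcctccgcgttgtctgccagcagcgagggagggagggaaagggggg
Col6a1, chr10:76726045-76726164, minus strand: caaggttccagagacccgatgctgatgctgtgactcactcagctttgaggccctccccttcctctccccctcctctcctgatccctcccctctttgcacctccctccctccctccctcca
The 4 stretches hold different motifs, and that of Col6a1 holds none of them. The TATAAA of Col3a1 lies at the end of its stretch farthest from the annotated start. The search took the letters at any position, so it does not show that they place the start.

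Over the 250 bases upstream, 34 of the 43 chains had an entry. CCAAT was found on either strand in 35.3% of them and in 34.5% of all 27025 promoters in the table, and TATAAA in 14.7% and 13%. GGGCGG was found in 61.8% of the collagen promoters and 32.9% of all. The 13 chains higher in PDGFRa+ cells than in at least 1 other population and present in the table held CCAAT in 46.2%, TATAAA in 7.69% and GGGCGG in 69.2%. The 21 other chains held them in 28.6%, 19% and 57.1%. A match describes the letters in this window and not a bound site.

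**Figure D2:**
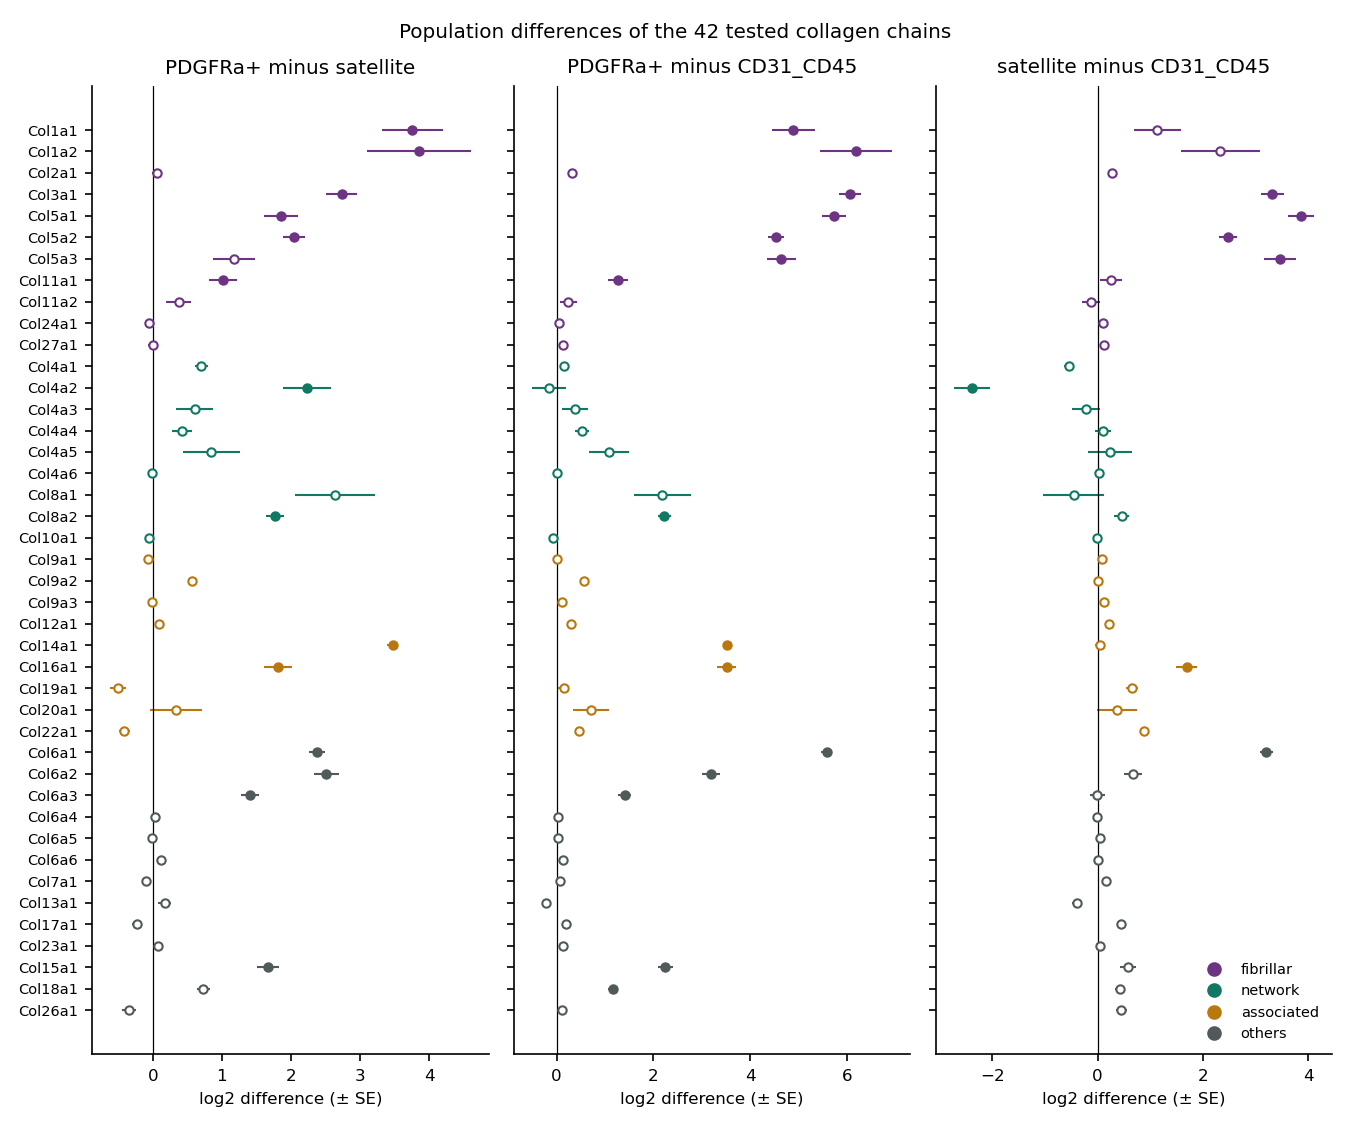
Log2 difference (horizontal axis) with its SE for each of the 42 tested chains in the 3 population comparisons, coloured by class, with filled points for chains past the test. Filled points lie to the right of 0 in all panels apart from Col4a2 at -2.39 between satellite and CD31_CD45 cells.

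Among the network collagens, the type IV chain Col4a2 divided the populations in another way. This gene, which codes for 1 of the 2 chains of the common basement membrane network, read 2252.2 and 1371.0 in PDGFRa+ cells. In CD31_CD45 cells it read 2289.2 and 1379.9. These ranges overlapped almost fully. Satellite cells stood below both at 282.2 and 373.1, a difference of 2.23 ± 0.35 from PDGFRa+ cells (4.68-fold, adjusted p = 0.0281) and of -2.39 ± 0.35 from CD31_CD45 cells (adjusted p = 0.0176, limma). The difference between PDGFRa+ and CD31_CD45 cells was -0.16 ± 0.35 (adjusted p = 0.800).

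Col4a1, the partner of Col4a2, lies next to it on chromosome 8, and in the promoter table their starts are 21 bases apart on opposite strands. The Col4a1 probe read 61.9 and 39.6 in PDGFRa+ cells, 18.3 and 17.2 in satellite cells and 41.1 and 43.5 in CD31_CD45 cells. Satellite cells were lowest, as for Col4a2, by 0.70 against PDGFRa+ cells (adjusted p = 0.0216) and 0.54 against CD31_CD45 cells (adjusted p = 0.0248, limma). Both stayed under the 2-fold minimum on the log2 scale with its offset, although the deposited intensities lie more than 2-fold apart. The array annotation ties this probe to a non-coding transcript accession, so it may not read the coding messenger. Col4a3 and Col4a5 were highest in young PDGFRa+ cells, at 43.2 and 129.9, while aged PDGFRa+ cells read 6.2 and 43.5. Neither they nor Col4a4 and Col4a6 passed in any population comparison.

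Type VIII collagen is a short-chain network of vessel walls and other matrices. Col8a2 read 244.0 and 259.0 in PDGFRa+ cells, 36.9 and 58.5 in satellite cells and 27.4 and 24.3 in CD31_CD45 cells. PDGFRa+ cells stood apart from the rest by 1.77 ± 0.14 and 2.22 ± 0.14 (adjusted p = 0.00978 and 0.00415, limma). Col8a1 read 1052.9 and 1054.3 in PDGFRa+ cells, 41.8 and 297.0 in satellite cells and 152.2 and 237.0 in CD31_CD45 cells. Both PDGFRa+ arrays lay above the other 4, but the differences of 2.64 ± 0.58 and 2.18 ± 0.58 did not pass (adjusted p = 0.0549 and 0.0749), with the satellite arrays far apart. Col10a1, the chain of hypertrophic cartilage, read 6.8 to 10.2 on all 6 arrays.

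Of the fibril-associated chains, Col14a1 and Col16a1 were called. Col14a1, whose product coats type I fibrils, read 1233.9 and 975.9 in PDGFRa+ cells, 59.5 and 61.4 in satellite cells and 64.4 and 54.5 in CD31_CD45 cells. The progenitors stood far above the rest, and satellite and CD31_CD45 cells overlapped. Its differences were 3.48 ± 0.08 (11.1-fold, adjusted p = 0.00392) and 3.51 ± 0.08 (11.4-fold, adjusted p = 0.00103, limma), and satellite cells differed from CD31_CD45 cells by 0.04 ± 0.08 (adjusted p = 0.794). Col16a1 read 846.3 and 694.6, then 143.9 and 217.3, then 29.9 and 36.7. It fell in steps, by 1.81 ± 0.20 from PDGFRa+ to satellite cells and by 1.70 ± 0.20 from satellite to CD31_CD45 cells.

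The other 7 associated chains were dim, and all but Col20a1 read under 50 on every array. Col9a1 and Col9a3 read 15.7 to 28.4 on every array. Col9a2, the third chain of type IX, read 20.3 and 14.3 in PDGFRa+ cells and at most 1.5 elsewhere, which the offset compresses to a log2 difference of 0.57 from both other populations, below the 2-fold minimum. Col22a1, a chain of the junction between muscle and tendon, read 36.4 and 31.7 in satellite cells, 23.7 and 10.5 in PDGFRa+ cells and 3.9 and 1.8 in CD31_CD45 cells. Satellite cells were highest, by 0.42 over PDGFRa+ cells (adjusted p = 0.0410) and by 0.88 over CD31_CD45 cells (adjusted p = 0.00676, limma). Neither reached the 2-fold minimum on this compressed scale, though the deposited intensities of satellite and CD31_CD45 cells lie much further apart. Col19a1 read 27.3 and 13.9 in satellite cells and at most 4.8 elsewhere, and Col9a1, Col24a1 and Col26a1 were the other chains with both satellite arrays on top.

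Type VI collagen, the beaded filament around muscle fibres, is assembled mainly from the products of Col6a1, Col6a2 and Col6a3. Col6a1 read 6635.2 and 4134.7 in PDGFRa+ cells, 1168.5 and 850.2 in satellite cells and 110.7 and 61.0 in CD31_CD45 cells. It dropped at each step, with 2.37 ± 0.12 between PDGFRa+ and satellite cells (adjusted p = 0.00632) and 3.21 ± 0.12 between satellite and CD31_CD45 cells (adjusted p = 0.00168, limma). Col6a2, its neighbour on chromosome 10, read 439.6 and 393.5, then 27.9 and 57.5, then 12.8 and 14.3. It was 2.51 ± 0.18 and 3.19 ± 0.18 higher in PDGFRa+ cells, while its step from satellite to CD31_CD45 cells was 0.67 ± 0.18 (adjusted p = 0.0657).

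Col6a3 read 92.1 and 54.9 in PDGFRa+ cells, 4.7 and 7.2 in satellite cells and 5.5 and 6.3 in CD31_CD45 cells. Its satellite and CD31_CD45 values overlapped, and PDGFRa+ cells were 1.41 ± 0.14 and 1.40 ± 0.14 higher (adjusted p = 0.0135 and 0.00910, limma). Its folds of 2.65 are understated by the offset. Col6a4, Col6a5 and Col6a6 read at most 4.2 on any array and passed in no comparison.

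The multiplexins Col15a1 and Col18a1 code for the core proteins from which restin and endostatin are cut, in the basement membrane zone. Col15a1 read 509.9 and 332.9 in PDGFRa+ cells, 101.2 and 99.4 in satellite cells and 77.2 and 42.3 in CD31_CD45 cells. Its difference was 1.67 ± 0.16 and 2.24 ± 0.16, both past the test. Col18a1 read 116.3 and 103.5, then 43.0 and 60.6, then 24.3 and 36.5, and it passed against CD31_CD45 cells alone (1.16 ± 0.09, adjusted p = 0.00649, limma) with 0.73 ± 0.09 against satellite cells, under the 2-fold minimum on this scale. The anchoring chain, the 4 transmembrane chains and Col26a1 read at most 36.1 on any array, with Col13a1 highest in CD31_CD45 cells at 36.1 and 32.1.

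Of the 27 chains that were not called or not tested, 22 read under 50 on every array. The highest reading among the 27 was 1054.3, for Col8a1. A dim probe can lack sensitivity as well as message, so a low value says only that a difference was not detectable at this signal.

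No collagen chain was called with age across the populations. The age term of the model, 3 aged against 3 young arrays, called 0 of 42 chains, and 0% of all 18372 genes, at an adjusted p under 0.05 (limma). Without adjustment 3 chains and 2030 genes had a p under 0.05, and the lowest adjusted p of a chain was 0.328.

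Within a population 1 aged array was set against 1 young array, so these values have no replicate check and no test. In PDGFRa+ cells Col1a2 and Col5a3 were at least 2-fold lower in the aged array and Col20a1 at least 2-fold higher, beside 0.161% and 0.255% of all genes. In satellite cells Col1a1, Col1a2 and Col8a1 were at least 2-fold higher and 0 chains lower, beside 1.12% and 0.0990%. In CD31_CD45 cells 0 chains passed 2-fold in either direction, beside 0.509% higher and 0.0657% lower.

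In PDGFRa+ cells most fibrillar chains were lower with age, some of them dim. Of 11 fibrillar chains 9 were lower in the aged array, with a median log2 difference of -0.54, beside -0.002 over all genes. That median is the value of Col11a2, a dim chain that read 27.2 and 6.6. Of all genes 48.96% were higher. Col1a2 differed by -1.03, Col5a3 by -1.03, Col5a1 by -0.58, Col1a1 by -0.56 and Col3a1 by -0.27 (-0.73 by its second probe). Col5a2 at -0.07 and Col27a1 at 0.14 stood near 0. Of 9 network chains 6 were lower (median -0.28), led by Col4a5 at -0.94 and Col4a3 at -0.88, but with the local spot background 5 of 9 were lower and the median was -0.00787. The type VI chains Col6a1, Col6a3 and Col6a2 differed by -0.75, -0.37 and -0.02. With the local spot background 7 of 11 fibrillar chains were lower and the class median was -0.24. With median scaling 8 of 11 were lower and the median was -0.48, where Col1a2 and Col5a3 came to -0.92 and -0.87.

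Both PDGFRa+ arrays had the same gain setting. Of 14 mesenchymal progenitor markers 5 were higher in the aged array and 0 were 2-fold higher or lower (median -0.09), and their summed intensity was 125770 on the young and 110670 on the aged array. Macrophage markers read 293.1 summed in the young and 2082.3 in the aged PDGFRa+ array, of which Lyz2 gave 110.1 and 1904.6. Glial markers summed to 251.6 and 489.5 (3 of 3 measured higher, Sox10 at 35.1 and 173.8) and pericyte and smooth muscle markers to 767 and 1178.4, with 2 of 9 at least 2-fold higher. Tendon markers summed to 14644 and 14951, with 3 of 7 higher, among them Comp at 1186.3 and 2004.3. Kera, at 1805 and 196.4, was the 1 tendon marker at least 2-fold lower, and 0 were at least 2-fold higher. The part of these differences in the collagen values was not tested.

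Col20a1, a fibril-associated chain, went the other way, reading 6.6 on the young and 73.0 on the aged PDGFRa+ array, with 10.0 and 30.9 in satellite cells. Its log2 difference was 1.47 in PDGFRa+ cells. A second Col20a1 probe read 8.4 and 8.9 in the same arrays, a difference of 0.06, so the probes disagreed.

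**Figure D3:**
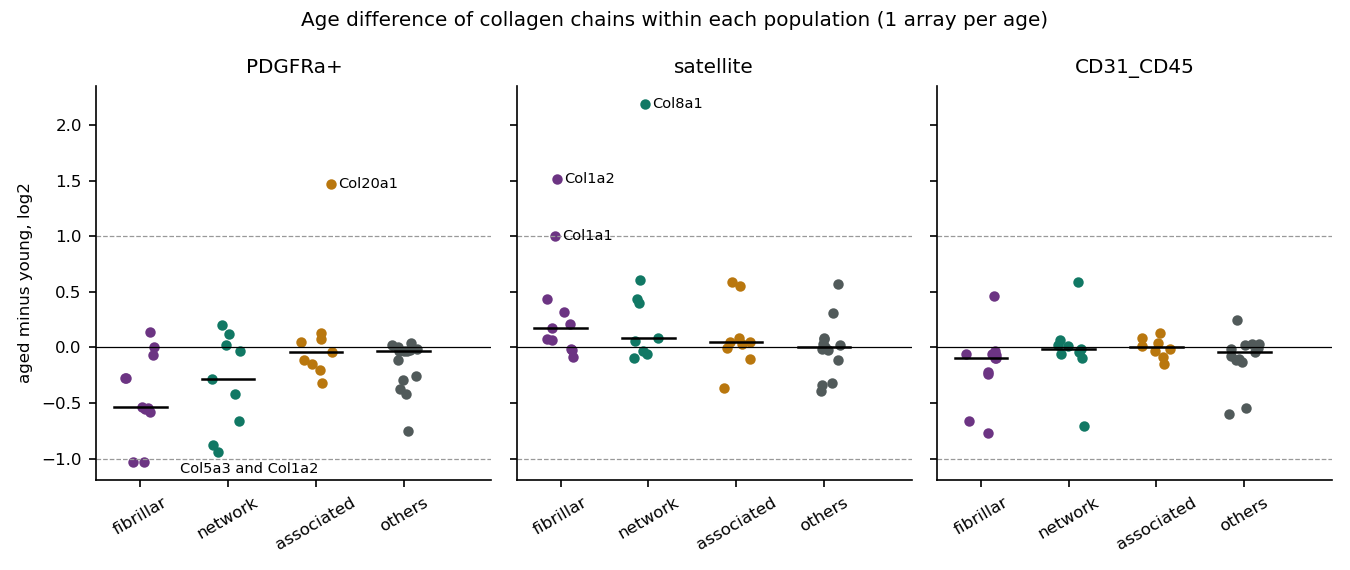
Aged minus young log2 difference of each chain within each population (1 array per age), by class, with a bar at the class median, dashed lines at 2-fold and the chains past 2-fold named. The fibrillar median lies at -0.54 in PDGFRa+ cells and 0.17 in satellite cells, and no chain passes 2-fold in CD31_CD45 cells.

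In satellite cells 8 of 11 fibrillar chains were higher in the aged array, with a median of 0.17 beside -0.01 over all genes. With the mean of probes 7 of 11 were higher. Of all genes 44.04% were higher. Col1a2 read 554.3 in young and 1591.5 in aged cells (log2 difference 1.51), and Col1a1 40.5 and 111.5 (1.00). Other fibrillar chains differed less, with Col5a2 at 0.43, Col5a1 at 0.32, Col3a1 at 0.17 and Col5a3 at -0.02. The second Col3a1 probe gave -0.55, so the probes disagreed in direction. Col8a1 had the widest age difference of any chain in any population, 41.8 against 297.0 (2.19), and its other probes gave 2.39 and 1.61. Col6a2 was higher by 0.57 while Col6a1 was lower, at -0.34.

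Col1a2 thus differed in opposite directions with age, by -1.03 in PDGFRa+ and by 1.51 in satellite cells, and its PDGFRa+ to satellite difference was 5.12 in young and 2.58 in aged mice. For Col1a1 those differences were 4.53 and 2.97, for Col5a1 2.31 and 1.40 and for Col3a1 2.95 and 2.51. The young pair shared a gain setting and the aged pair did not.

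Several marker lists moved with the aged satellite array, which was also scanned at another gain setting than the young one. All 14 mesenchymal progenitor markers were higher in the aged satellite array, 5 of them at least 2-fold, and their summed intensity was 10732 in young and 15696 in aged cells. Pdgfra read 7.6 and 60.6. Of the tendon markers 6 of 7 were higher (sums 909.3 and 3298.7), of the pericyte and smooth muscle markers 8 of 9 (4896.5 and 8509.7), and of the myofibre markers 8 of 8 (2516.8 and 4502.6). Macrophage markers summed to 240.9 and 1096.1 (8 of 8 higher), of which Lyz2 gave 147.3 and 965.3. Hematopoietic markers summed to 58.1 and 80 (7 of 8 higher), glial markers to 224.9 and 293 (2 of 3) and endothelial markers to 1024.3 and 1103.8 (8 of 12). Satellite markers summed to 19017 and 13102, with 2 of 10 higher, 0 at least 2-fold lower and a median of -0.23. Chodl alone gave 10010.3 and 5870.6 of these sums, while Pax7 read 1055 and 1361.6.

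Set against the aged PDGFRa+ level of the same probe, the age difference in satellite cells was 11.5% for Col1a2, 6.08% for Col1a1 and 24.2% for Col8a1. It was 0.909% for Col3a1, whose second probe was lower in the aged satellite array, 0.195% for Col14a1 and -7.7% for Col6a1. Over the 16 chains that read at least 100 in aged PDGFRa+ cells the median was 6.12%, with a range of -7.7% to 24.2%. Over the 14 mesenchymal markers the median was 1.96%, from 0.242% for Clec3b to 10.9% for Dcn, with Pdgfra at 1.28%. The shares differed from chain to chain and from marker to marker. Markers of the other lists, such as tendon, were not set against PDGFRa+ levels in this way. The part of other cell types in the satellite values was not tested.

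**Figure D4:**
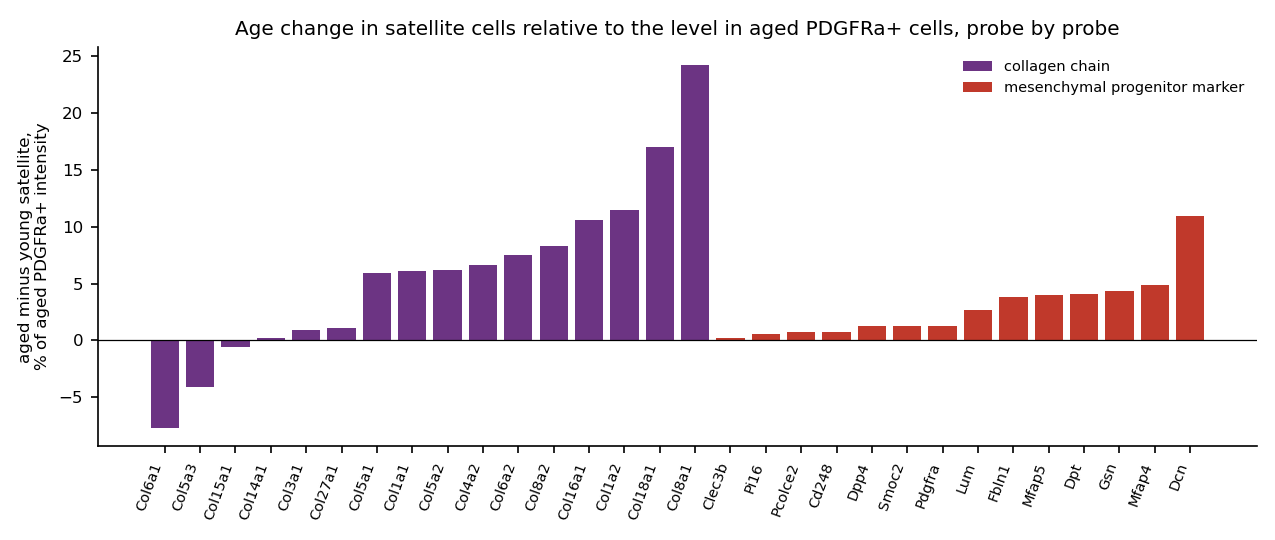
Aged minus young satellite intensity as a percentage of the aged PDGFRa+ intensity of the same probe (vertical axis), with 1 bar per gene, for the 16 collagen chains and 14 mesenchymal progenitor markers that read at least 100 in aged PDGFRa+ cells. Bars run from -7.7% (Col6a1) to 24.2% (Col8a1) for collagens and from 0.242% (Clec3b) to 10.9% (Dcn) for markers.

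In CD31_CD45 cells 10 of 11 fibrillar chains were lower in the aged array, with a median of -0.09 beside -0.01 over all genes. Of all genes 43.74% were higher. With the local spot background 7 of 11 were lower and the median was -0.03. Some of these chains were very dim here, such as Col11a1 at 2.6 and 1.1. No chain reached 2-fold. Col1a2 (-0.77), Col4a2 (-0.70), Col3a1 (-0.66) and Col6a1 (-0.60) were the lowest, and Col8a1 (0.58) and Col5a2 (0.46) the highest. The second Col3a1 probe gave -0.11. From the deposited value table, 2 chains passed 2-fold. The markers of the mixed population also differed with age on the same arrays. Endothelial markers summed to 51471 in young and 39972 in aged cells, with 2 of 12 higher and a median of -0.26. Hematopoietic markers summed to 6832.4 and 7513.8 (7 of 8 higher, median 0.41) and macrophage markers to 23744 and 27949 (6 of 8 higher, median 0.31). Their part in the collagen values was not tested.

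Genes that modify, process or bind collagen were described from lists chosen by function. Of 19 measured genes for chain modification and folding, 6 rose in PDGFRa+ over satellite cells (4.09% of all genes did), 8 rose over CD31_CD45 cells (4.69%) and 0 fell in either (3.20% and 5.40%). Sparc, a matrix protein that binds collagen, Plod1, a lysyl hydroxylase, and Colgalt2, a galactosyltransferase, had the widest differences over satellite cells (2.27 ± 0.25, 1.68 ± 0.14 and 1.67 ± 0.10). P3h3, of the prolyl 3-hydroxylase family, Fkbp14, a folding isomerase, and P3h4, a partner of those hydroxylases, had them over CD31_CD45 cells (2.99 ± 0.18, 1.91 ± 0.16 and 1.80 ± 0.09). Plod1 read 553.7 and 383.4 in PDGFRa+, 113.5 and 112 in satellite and 638.1 and 448.2 in CD31_CD45 cells. It thus had the order of Col4a2, and satellite cells were below CD31_CD45 cells by -1.94 ± 0.14 (adjusted p = 0.00459, limma).

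Of 12 measured genes for propeptide processing and cross-linking 6 rose in PDGFRa+ over satellite cells and 7 over CD31_CD45 cells, beside 4.09% and 4.69% of all genes, and 0 fell. Pcolce2, an enhancer of procollagen C-proteinase that is also among the mesenchymal markers, read 5002.2 and 3788.5 in PDGFRa+, 101.9 and 129.6 in satellite and 12.8 and 33 in CD31_CD45 cells (4.87 ± 0.26 and 6.32 ± 0.26). Its relative Pcolce rose by 4.53 ± 0.52 and 4.60 ± 0.52, and the lysyl oxidase Loxl2 by 2.16 ± 0.22 over satellite cells. Loxl1, another lysyl oxidase, read 2370 and 2977.7, then 641.9 and 1264.4, then 17.7 and 19.4. Its steps resembled those of the type V chains in order, with 4.195 ± 0.28 between satellite and CD31_CD45 cells (adjusted p = 0.00427, limma). In aged satellite cells Pcolce (1.58), Lox (1.06) and Loxl1 (1.06) were at least 2-fold higher than in young ones, on 1 array each, as were 1.12% of all genes.

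Of 10 collagen receptor genes 2 rose in PDGFRa+ over satellite cells, beside 4.09% of all genes. Against CD31_CD45 cells 3 rose and 2 fell, beside 4.69% and 5.40%. Ddr2, a receptor tyrosine kinase for fibrillar collagen, rose by 1.91 ± 0.30 and 3.36 ± 0.30, and Itga11, an integrin subunit of fibroblasts, by 1.14 ± 0.10 and 1.11 ± 0.10. Mrc2, which takes up collagen for breakdown, rose by 1.31 ± 0.09 over CD31_CD45 cells. Itga1, an integrin subunit that binds type IV collagen, and Lair1, an inhibitory receptor of immune cells, differed by -1.72 ± 0.08 and -1.504 ± 0.09 in PDGFRa+ against CD31_CD45 cells, both past the test. Itga1 read 45 and 44.1 in PDGFRa+, 82.2 and 69.9 in satellite and 248.1 and 214.4 in CD31_CD45 cells.

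**Figure D5:**
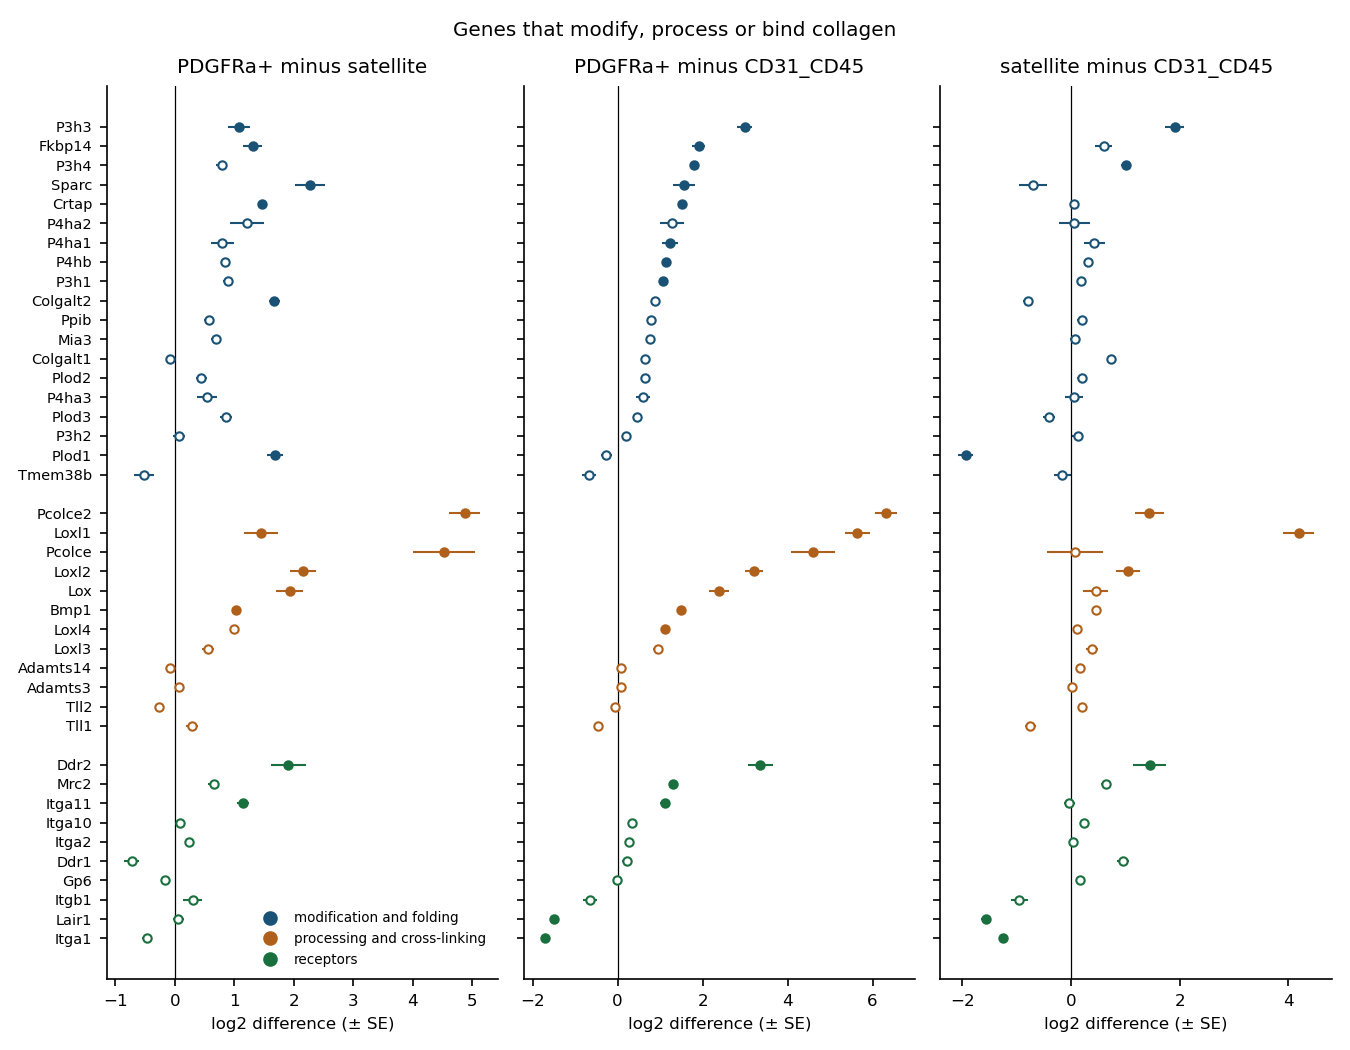
Log2 difference with its SE for genes of collagen modification and folding, of processing and cross-linking, and receptors, in the 3 population comparisons, with filled points for genes past the test. Points of the processing list reach 6.32 (Pcolce2) between PDGFRa+ and CD31_CD45 cells, and receptors lie on both sides of 0, down to -1.72 (Itga1).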

How the data were processed

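The scanner files hold linear spot intensity and the deposited value table holds linear intensity, per the file headers. A match of the table to the scanner files (largest difference 0.0559) showed spot median less blank spots, scaled to a median of 25 per array. RNA was amplified with amino allyl nucleotides and coupled to dye, per the labels' protocols. Here the spot medians went through limma's normexp correction (background: 5% trimmed mean of blank spots; offset 50), then log2 and quantile normalisation. Control spots were left out. Symbols from the array annotation named 20690 probes, and the 2783 unnamed probes were not used. Genes above background (blank mean plus 2 SD) on at least 2 of 6 arrays were tested with limma 3.58.1 in R 4.3.3, population and age as terms, two-sided, with 2 residual and 1.5 prior degrees of freedom. Ages served as the arrays of a population, so p-values measure the spread left after a shared age term. The fit was also run on simulated arrays with independent errors and no age differences. That run does not test the use of ages as the arrays of a population.

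Named were chains called in a comparison or 2-fold different with age, chains of types I, IV, V, VI, VIII, IX and XI, and the 3 widest called genes per pathway list and direction. Col13a1, Col19a1, Col22a1 and other uncalled chains were named after their values were seen. The members and lists were chosen with earlier results of these data known. Alternatives changed the background, offset, scaling, filter, probe rule, age term, gain setting, fold and arrays. A comparison of protein sequences was not made.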

Additional observations from a re-analysis of the deposited data

Results flagged for a closer look

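Col1a2 was picked out because its aged over young difference reached 2-fold in opposite directions in different populations. Its log2 difference was -1.03 in PDGFRa+ cells (18341.0 in young, 9027.2 in aged) and 1.514 in satellite cells (554.3 in young, 1591.5 in aged). Each value comes from 1 array per age, and the difference between populations was not tested. Col1a2 was read by 1 probe.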

How the results depend on the processing

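No called chain reversed under any alternative run. Of the repeats of the 36 called differences 510 kept their call and 102 kept their direction alone. Chains called between PDGFRa+ and satellite cells (14) numbered 22 with the authors' value table (21 higher, 1 lower) and 2 with the local spot background. With the offset of 10 they were 18 higher and 1 lower, and with no fold minimum 17 higher and 1 lower. They ranged from 0 to 14 with an array left out, 0 without either PDGFRa+ array and 8 without either CD31_CD45 array. Against CD31_CD45 cells (15) the count was 3 with the local background and 10 to 16 with an array left out. Between satellite and CD31_CD45 cells (7) it was 16 with the value table, 2 with the local background, 12 with an offset of 10, 14 with no fold minimum and 4 to 9 with an array left out, 4 without young CD31_CD45. Chains 2-fold different with age (6) numbered 17 with the value table, 14 with the local background, 11 with the offset of 10 and 16 at 1.5-fold, but 4 with median scaling (1 in place of 3 in PDGFRa+ cells) and 5 with the mean of probes. The age term called 0 under every alternative. Where an array is left out, the lone array of a population is assumed to vary like the rest. The local background called 69, 288 and 342 of all genes, and the cause of the fewer calls was not tested. In the same order of comparisons the value table called 3145, 4097 and 4714 of all genes. An offset of 10 called 2210, 2941 and 3375, and no fold minimum called 4508, 5271 and 6407. The higher chain counts under these settings therefore came with more calls among all genes. For the 2-fold age counts, counts over all genes under the alternatives were not computed. No paired analysis was possible because each population and age has 1 array and the age term already joins arrays of one age. The planned counts of protein sequence features were not run, since no protein sequences were used. Dim probes limit what can be seen in 22 of the 27 chains not called.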
